A study of Homo sapiens with 8 samples.

Results

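The 9 genes described here are NFE2L2, which encodes the transcription factor NRF2, and 8 genes of oxidative and glutathione defence, NQO1, HMOX1, GCLC, GCLM, TXNRD1, SRXN1, AKR1B10 and GPX4. They were taken by name, all 9 were found among the 60669 genes of the count tables, and all 9 were among the 17868 genes with enough counts to be tested. They were followed over 4 groups of 2 RNA-seq libraries from HCT116, a line from a human colon carcinoma. The groups were WT cells left untreated, WT cells given 0.5 µM doxorubicin for 24 h, DPF2 R350H cells left untreated, and DPF2 R350H cells given the same doxorubicin treatment. DPF2 belongs to BAF, a complex that moves nucleosomes, R350H is a substitution in it, and doxorubicin is an anthracycline that traps topoisomerase II on DNA and whose quinone ring can pass electrons to oxygen. Nothing in the labels tells how many edited clones were used or that replicate libraries are separate cultures. The p-values therefore reflect the spread between these samples alone, and that spread may be technical. The R350H change cannot be told apart from any other difference between the lines.

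NRF2 is held at a low level by KEAP1, an adaptor that brings it to a ubiquitin ligase. When oxidants or electrophiles modify KEAP1, NRF2 builds up, pairs with a small MAF protein and binds antioxidant response elements near its target genes. The control lies mainly in the stability of the protein, which mRNA counts do not show. Its targets make glutathione (GCLC, GCLM), keep thioredoxin and peroxiredoxin reduced (TXNRD1, SRXN1), and reduce quinones and aldehydes (NQO1, AKR1B10) or break down haem (HMOX1). GPX4 uses glutathione to reduce lipid hydroperoxides and so protects against ferroptosis, a form of cell death driven by lipid peroxidation.

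The libraries held 28111673 to 33727374 counts each. DPF2 itself was counted at 92.7 to 108 CPM (reads per TMM-scaled library size) in the 4 WT libraries and at 53.5 to 58.6 CPM in the 4 R350H libraries, and counts per gene cannot show the edit itself. Of 8 markers of the colon epithelium 6 passed 1 CPM in at least 1 library, and VIL1 and CDH17 were near 0. Markers of other cell types past 1 CPM in any library were 0 of 5 for blood, 0 of 3 for liver, 1 of 4 for fibroblasts and 1 of 3 for endothelium. COL1A1, a fibroblast collagen, stood at 33.3 to 63.0 CPM in the WT and 69.1 to 88.7 CPM in the R350H libraries, with COL1A2, PDGFRA and DCN at or near 0, and VWF reached 1.15 CPM. The share of counts on mitochondrially encoded transcripts was 11.2 to 11.8% untreated and 13.5 to 14.6% with doxorubicin, and their part in the results below was not tested. Untreated WT replicate 1 and untreated R350H replicate 2 were counted by the authors with the other strand setting than the remaining 6 libraries, and member calls that change without these 2 libraries are given beside the result.

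With doxorubicin more of the 9 genes fell than rose in both lines. The log2 changes of NFE2L2, TXNRD1 and GPX4 were lower in R350H than in WT cells. In WT the GPX4 change was -0.02 and did not pass the edgeR test. In WT cells 5 of the 9 fell, 1 rose and 3 did not pass the test (edgeR quasi-likelihood test, adjusted p under 0.05 over all genes). In the DESeq2 test 3 of the 9 fell in WT. The median edgeR log2 change was -0.21, against -0.03 over all genes tested. The background was high, since 47.7% of the 17868 genes tested passed in this comparison and 23.6% passed as lower. In R350H cells 7 fell, 1 rose and 1 did not pass, with a median of -0.60 against 0.03 over all genes, where 47.9% of genes passed, 21.8% as lower and 26.1% as higher. AKR1B10 was the 1 that rose in each line, and in WT 24.1% of all genes passed as higher. In such bulk libraries fewer cells that express a gene and less RNA per cell cannot be told apart.

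Measured per length of exon, the 9 genes spanned a wide range of levels. The length is that of all annotated exons of a gene together, not of the transcripts made. The order between genes may therefore depend partly on the annotation. In untreated WT cells TXNRD1 was highest at 89.9 ± 3.7 CPM per kb (SD, n = 2 here and below). GPX4 at 76.3 ± 3.4 and NQO1 at 74.9 ± 3.2 CPM per kb came next and did not differ beyond their spread. NFE2L2 followed at 31.3 ± 0.19, GCLC at 13.4 ± 0.84, HMOX1 at 8.72 ± 1.1 and GCLM at 6.37 ± 0.22 CPM per kb. SRXN1 stood at 1.54 ± 0.097 and AKR1B10 at 0.046 ± 0.0067 CPM per kb, the lowest. The catalytic subunit GCLC was thus above its modifier GCLM. The SRXN1 level is uncertain, because 2292 of its 2528 exon bases are shared with another annotated gene on the same strand (ENSG00000270299.1, counted at 0 in all libraries), which leaves 236 bases of its own.

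The order changed with the line and the treatment. In untreated R350H cells NQO1 was highest at 136 ± 6.6 CPM per kb, above TXNRD1 at 99.4 ± 0.099 and GPX4 at 83.7 ± 3.6. NFE2L2 stood at 33.7 ± 0.61, GCLC at 15.4 ± 0.42, GCLM at 8.02 ± 0.82, HMOX1 at 5.81 ± 1.3, SRXN1 at 1.69 ± 0.14 and AKR1B10 at 0.14 ± 0.026 CPM per kb, so that GCLM was above HMOX1, the reverse of untreated WT. In WT cells with doxorubicin GPX4 at 75.2 ± 1.2, TXNRD1 at 70.1 ± 5.4 and NQO1 at 69.8 ± 6.3 CPM per kb lay within 1 SD of their neighbours in the order, and AKR1B10 at 3.73 ± 0.43 and GCLM at 3.45 ± 0.1 did too. NFE2L2 stood at 28.0 ± 0.82, GCLC at 8.53 ± 0.22, HMOX1 at 7.52 ± 0.13 and SRXN1 at 1.12 ± 0.2 CPM per kb. With doxorubicin in R350H cells NQO1 stood at 117 ± 1.5, GPX4 at 60.5 ± 0.085 and TXNRD1 at 49.6 ± 0.22 CPM per kb, so TXNRD1, the highest of the 9 in untreated WT, came below GPX4. NFE2L2 followed at 20.8 ± 0.23, GCLC at 10.2 ± 0.1, HMOX1 at 5.81 ± 0.0029, GCLM at 4.88 ± 0.11, AKR1B10 at 2.1 ± 0.35 and SRXN1 at 0.865 ± 0.08 CPM per kb.

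NFE2L2 (ENSG00000116044.16, chromosome 2, 177227595 to 177392697, minus strand, hg38) stood at 178 and 177 CPM untreated and 162 and 156 CPM with doxorubicin in WT cells, and at 194 and 189 CPM untreated and 117 and 119 CPM with doxorubicin in R350H cells. The 2 R350H libraries with doxorubicin lay below all 6 others. In R350H cells the gene fell by 0.70 ± 0.06 on the log2 scale (± SE of the edgeR fit; 1.62-fold lower, edgeR adjusted p = 3.4e-10). In WT cells the log2 change was -0.16 ± 0.06 (edgeR adjusted p = 0.0337), a call that 11 of 16 alternative settings did not make. Among these were leaving out treated WT replicate 2 (-0.09, edgeR adjusted p = 0.313) and leaving out the 2 libraries of the other strand setting (-0.16, edgeR adjusted p = 0.0708). The response in R350H minus that in WT was -0.54 ± 0.09 (edgeR adjusted p = 7.4e-05), kept in all 15 alternatives. Some reads of NFE2L2 could not be placed, since 1054 of its 5671 exon bases are shared on the same strand with ENSG00000213963.6, a gene counted at 196 to 366 reads.

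The mRNAs of KEAP1 and BACH1 were both counted. Their proteins hold NRF2 back, BACH1 as a repressor that competes for NRF2 sites. KEAP1 was counted at 53.6 and 61.6 CPM untreated and 57.6 and 53.8 CPM with doxorubicin in WT cells, and at 48.3 and 49.5 CPM untreated and 55.5 and 57.4 CPM with doxorubicin in R350H cells. It was lower in untreated R350H than in untreated WT by -0.23 ± 0.07 (edgeR adjusted p = 0.0139) and rose in R350H with doxorubicin by 0.21 ± 0.07 (edgeR adjusted p = 0.0216). Alternatives lost the first call in 4 of 16, such as without untreated WT replicate 2 (-0.13, edgeR adjusted p = 0.207), and the second in 6 of 16. BACH1 ran from 33.1 to 42.3 CPM over the 8 libraries, and its log2 changes with doxorubicin were 0.13 ± 0.08 in WT and 0.04 ± 0.08 in R350H, neither past the test. BACH1 was higher in untreated R350H than in untreated WT by 0.21 ± 0.08 (edgeR adjusted p = 0.042), a call lost in 8 of 16 alternatives, such as without untreated WT replicate 2 (0.12, edgeR adjusted p = 0.314). NFE2L1 and MAFF had larger changes. NFE2L1, which encodes the related factor NRF1, fell from 697 and 714 CPM to 341 and 336 CPM in WT and from 939 and 990.1 CPM to 283 and 282 CPM in R350H. Its log2 change was -1.06 ± 0.07 in WT and -1.77 ± 0.07 in R350H, with a difference of -0.71 ± 0.09 (edgeR adjusted p = 2.35e-06). MAFF, a small MAF gene, moved in opposite directions, from 22.0 and 24.4 CPM up to 35.0 and 35.2 CPM in WT, and from 28.1 and 27.1 CPM down to 13.7 and 16.3 CPM in R350H. The MAFF difference was -1.48 ± 0.13 (edgeR adjusted p = 2.23e-09). Over the list of 15 NRF2 regulators 4 rose and 5 fell in WT (median -0.07), and 3 rose and 5 fell in R350H (median -0.05). Among all genes tested 24.1% passed as higher and 23.6% as lower in WT, and 26.1% and 21.8% in R350H.

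GCLC and GCLM, the 2 subunits of glutamate-cysteine ligase, the rate-limiting enzyme of glutathione synthesis, fell with doxorubicin in both lines. GCLC (ENSG00000001084.13, chromosome 6, 53497341 to 53616970, minus strand) was counted at 121 and 111 CPM untreated and 72.2 and 74.9 CPM with doxorubicin in WT cells, and at 131 and 136 CPM untreated and 88.3 and 87.1 CPM with doxorubicin in R350H cells. All 4 treated libraries lay below all 4 untreated ones. GCLC fell by 0.66 ± 0.07 in WT (edgeR adjusted p = 3.95e-09) and by 0.60 ± 0.06 in R350H (edgeR adjusted p = 1.24e-08), in all 16 alternatives each. GCLM (ENSG00000023909.10, chromosome 1, 93885199 to 93909456, minus strand) was counted at 33.7 and 35.4 CPM untreated and 19.1 and 18.3 CPM with doxorubicin in WT cells, and at 40.4 and 46.6 CPM untreated and 26.0 and 26.9 CPM with doxorubicin in R350H cells. Its treated libraries too lay below every untreated one. GCLM fell by 0.89 ± 0.09 in WT (1.85-fold lower, edgeR adjusted p = 2.58e-09) and by 0.72 ± 0.08 in R350H (1.64-fold lower, edgeR adjusted p = 3.95e-08), again in all 16 alternatives each. The test found no difference between the lines' responses for either subunit, with differences of 0.05 ± 0.09 for GCLC (edgeR adjusted p = 0.768) and 0.17 ± 0.12 for GCLM (edgeR adjusted p = 0.392). A p that misses the threshold does not show that the responses were alike.

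Both subunits were higher in R350H than in WT cells. Untreated, GCLC was higher by 0.20 ± 0.06 (edgeR adjusted p = 0.0152) and GCLM by 0.33 ± 0.08 (edgeR adjusted p = 0.0018). With doxorubicin the values were 0.25 ± 0.07 for GCLC (edgeR adjusted p = 0.00295) and 0.50 ± 0.09 for GCLM (edgeR adjusted p = 4.15e-05). Of these 4 differences, 3 were not called without certain libraries. The untreated call was lost for GCLC without untreated WT replicate 2 (0.14, edgeR adjusted p = 0.14) or untreated R350H replicate 2 (0.17, edgeR adjusted p = 0.144). For GCLM it was lost without untreated R350H replicate 2 (0.22, edgeR adjusted p = 0.105) and without the 2 libraries of the other strand setting (0.19, edgeR adjusted p = 0.209). With doxorubicin the GCLC call was lost without R350H replicate 1 (0.20, edgeR adjusted p = 0.117) or 2 (0.22, edgeR adjusted p = 0.0849), and the GCLM call was kept in all 16 alternatives. The 23 tested genes within 3 Mb of GCLC had median differences of 0.27 untreated and 0.33 with doxorubicin, above those of GCLC itself, while the 39 around GCLM had medians of -0.08 and 0.06.

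The promoters of GCLM and GCLC are shown because the 2 subunits moved together. That of TXNRD1 is shown as 1 of the genes that responded differently in the 2 lines. The sequences are from RefSeq (GRCh38.p14), run 5′ to 3′ on the gene's strand from 250 bases before the start site to 10 bases after it, and carry the antioxidant response element core TGACNNNGC, read on either strand, in capitals. They cover chr1:93909421-93909680 (minus strand) for GCLM, chr6:53545092-53545351 (minus strand) for GCLC and chr12:104215529-104215788 (plus strand) for the first of the 2 TXNRD1 start sites.
GCLM: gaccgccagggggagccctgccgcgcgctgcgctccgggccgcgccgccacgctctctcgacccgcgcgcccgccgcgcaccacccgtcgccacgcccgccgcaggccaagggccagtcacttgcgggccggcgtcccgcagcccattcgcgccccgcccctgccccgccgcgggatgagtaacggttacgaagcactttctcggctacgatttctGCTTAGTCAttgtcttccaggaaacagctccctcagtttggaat
GCLC: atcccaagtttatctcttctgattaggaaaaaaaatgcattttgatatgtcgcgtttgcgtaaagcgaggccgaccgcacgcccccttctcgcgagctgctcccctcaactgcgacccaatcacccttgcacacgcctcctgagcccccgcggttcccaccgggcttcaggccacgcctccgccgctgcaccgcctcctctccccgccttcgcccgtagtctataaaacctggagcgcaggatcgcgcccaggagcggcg
TXNRD1: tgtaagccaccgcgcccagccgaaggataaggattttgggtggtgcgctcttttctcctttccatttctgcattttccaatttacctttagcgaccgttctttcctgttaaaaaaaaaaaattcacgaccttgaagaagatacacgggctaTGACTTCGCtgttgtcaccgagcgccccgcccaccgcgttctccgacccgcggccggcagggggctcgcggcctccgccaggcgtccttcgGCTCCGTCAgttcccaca
GCLM held 1 match, TGACTAAGC on the other strand, 34 bases before the start site. TXNRD1 held TGACTTCGC on its own strand 99 bases before the start site and TGACGGAGC on the other strand 8 bases before it. GCLC held none in this window. The promoters of NFE2L2 and GPX4, whose responses also differed between the lines, held none either and are not printed. RefSeq promoters were matched for 7 of the 9 genes (11 promoters, searched from 250 bases before to 50 after the start). Of those 7 genes 2 had a match, in 3 of the 11 promoters, against 13.3% of all 35116 promoters of that length. Elements farther from the start site were not searched for, so a gene without a match may still have one. The AP-1 element TGACTCA, which overlaps the core where it is followed by GC, was in none of the 11 and in 4.95% of all promoters, and the CARE element TGATGNAA of the amino acid stress response was in none of the 11 and in 3.62% of all. The second TXNRD1 start site held TGACAAAGC on the other strand, 102 bases before it, so that 3 of the 11 promoters had a match. A match is a run of letters, not a site in use.

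Cystine uptake feeds the ligase. SLC7A11, the cystine transporter, was counted at 476 and 401 CPM untreated and 179.8 and 182 CPM with doxorubicin in WT cells, and at 448 and 409.6 CPM untreated and 28.6 and 25.5 CPM with doxorubicin in R350H cells. SLC3A2, its partner chain, stood at 515 and 594, 342 and 342, 493 and 494, and 97.4 and 102 CPM in the same order. For both genes the treated R350H libraries were lowest and the treated WT libraries came next. The difference between responses was -2.71 ± 0.11 for SLC7A11 (edgeR adjusted p = 6.04e-15) and -1.61 ± 0.10 for SLC3A2 (edgeR adjusted p = 2.37e-12), while those of GCLC and GCLM did not pass. CHAC1, which breaks glutathione down, went from 80.4 and 88.9 CPM to 66.6 and 68.1 CPM in WT and from 63.2 and 52.8 CPM to 5.46 and 6.69 CPM in R350H. GSS, glutathione synthetase, the enzyme after the ligase, was lower in untreated R350H than in untreated WT by -0.62 ± 0.07 (edgeR adjusted p = 4.26e-08). Of the 33 tested genes of the glutathione list 8 rose and 9 fell in WT (median 0.03). In R350H 12 rose and 8 fell (median 0.09). The shares of all genes tested were 24.1% higher and 23.6% lower in WT, and 26.1% and 21.8% in R350H.

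**Figure D1:**
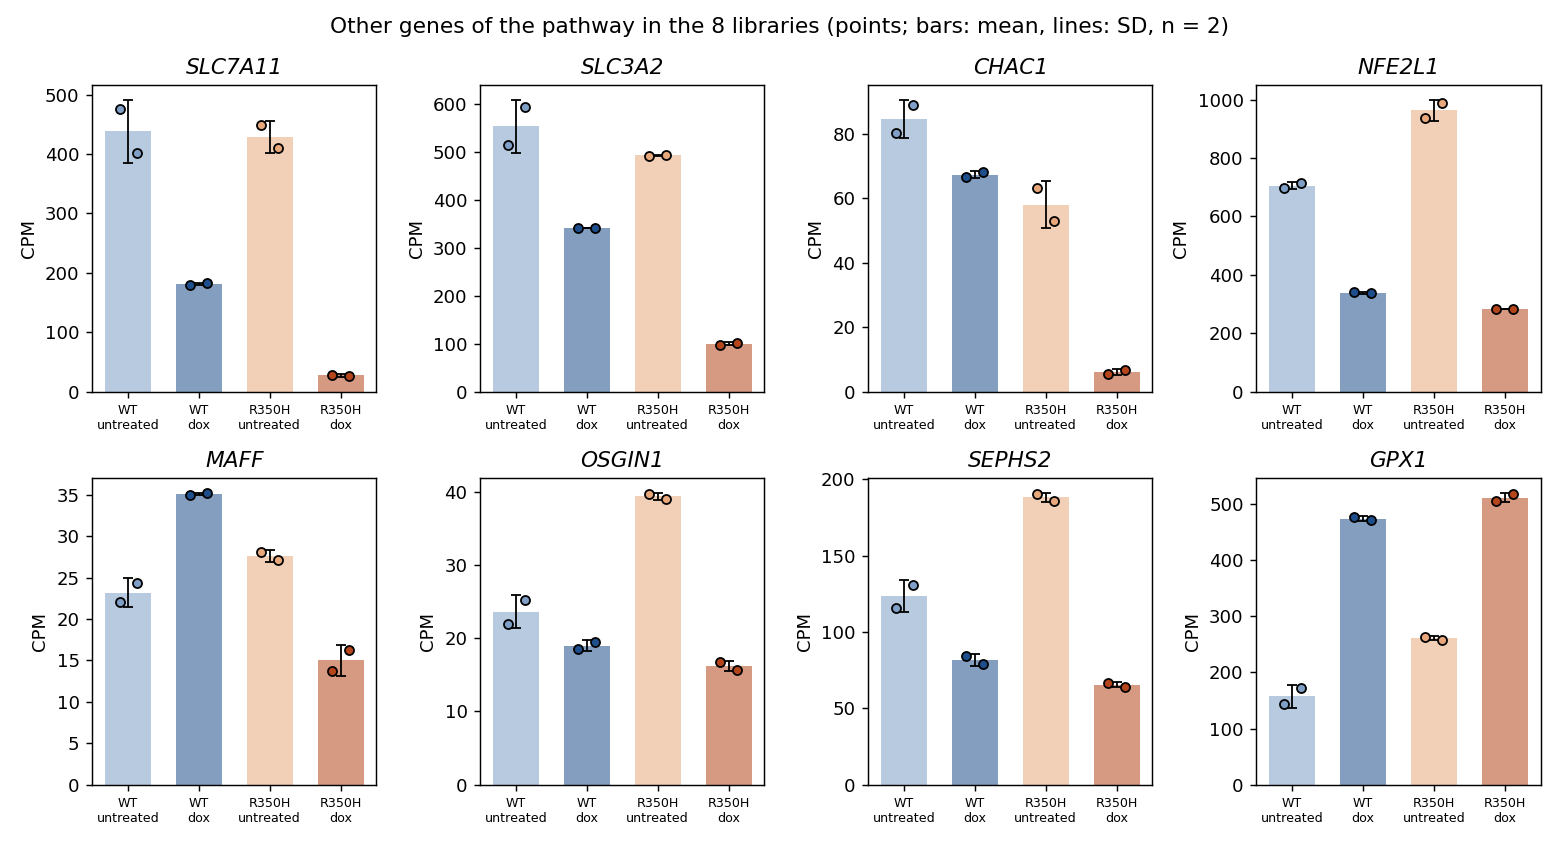
Level in CPM of 8 other genes of the pathway in each library (points), with group means (bars) and SD (lines, n = 2). The 8 were picked from the genes named in the text without a rule and do not stand for the pathway. PRDX1, CAT and ABCC2, not plotted, were highest in R350H cells with doxorubicin. SLC7A11, SLC3A2 and CHAC1 were lowest in R350H cells with doxorubicin, GPX1 rose in both lines, and the MAFF points went up in WT and down in R350H.

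TXNRD1 (ENSG00000198431.16, chromosome 12, 104215779 to 104350307, plus strand), the cytosolic selenoprotein that reduces thioredoxin, was counted at 620.5 and 585 CPM untreated and 496 and 444 CPM with doxorubicin in WT cells, and at 666 and 667 CPM untreated and 334 and 332 CPM with doxorubicin in R350H cells. Treated libraries lay below untreated ones in each line, and the treated R350H libraries were the lowest of the 8. TXNRD1 fell by 0.36 ± 0.07 in WT (1.28-fold lower, edgeR adjusted p = 8.14e-05) and by 1.0 ± 0.07 in R350H (2.0-fold lower, edgeR adjusted p = 1.44e-12). The difference of -0.64 ± 0.10 (edgeR adjusted p = 2.19e-05) was kept in all 15 alternatives. SRXN1 (ENSG00000271303.2, chromosome 20, 646615 to 653200, minus strand), sulfiredoxin, which reactivates overoxidised peroxiredoxins, was counted at 3.72 and 4.06 CPM untreated and 3.18 and 2.46 CPM with doxorubicin in WT cells, and at 4.0 and 4.52 CPM untreated and 2.33 and 2.04 CPM with doxorubicin in R350H cells. Treated values were below untreated ones in both lines, on 66 to 146 reads per library. SRXN1 fell in R350H by 0.96 ± 0.19 (edgeR adjusted p = 0.000151) in all 16 alternatives. In WT the log2 change of -0.46 ± 0.19 (edgeR adjusted p = 0.048) was not called in 13 of 16 alternatives, and the difference of -0.50 ± 0.27 did not pass (edgeR adjusted p = 0.246). The WT value was -0.25 without treated WT replicate 2 (edgeR adjusted p = 0.368) and -0.53 without the 2 libraries of the other strand setting (edgeR adjusted p = 0.109).

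Among the peroxide-removing enzymes beside this system, PRDX1, a peroxiredoxin, rose from 432 and 476 CPM to 684 and 620.4 CPM in WT and from 502 and 494 CPM to 698 and 707 CPM in R350H, by 0.52 ± 0.07 and 0.50 ± 0.07 on the log2 scale (edgeR adjusted p = 5.18e-07 and 1e-06). CAT, catalase, which breaks down hydrogen peroxide, fell from 83.2 and 80.6 CPM to 70.6 and 67.9 CPM in WT and rose from 106 and 101 CPM to 127 and 123 CPM in R350H. The CAT difference was 0.51 ± 0.09 (edgeR adjusted p = 0.000195). Of the 18 tested genes of the thioredoxin and peroxiredoxin list 7 rose and 3 fell in WT (median 0.07). In R350H 6 rose and 4 fell (median 0.11). All genes tested passed as higher in 24.1% and lower in 23.6% in WT, and in 26.1% and 21.8% in R350H.

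GPX4 (ENSG00000167468.17, chromosome 19, 1103926 to 1106791, plus strand) was counted at 149 and 159 CPM untreated and 150.2 and 154 CPM with doxorubicin in WT cells, and at 174 and 164 CPM untreated and 122 and 122 CPM with doxorubicin in R350H cells. WT values with and without doxorubicin overlapped, and the treated R350H libraries lay below all 6 others. The log2 change was -0.02 ± 0.06 in WT (edgeR adjusted p = 0.82), and GPX4 fell by 0.47 ± 0.06 in R350H (1.38-fold lower, edgeR adjusted p = 6.3e-07). The difference of -0.45 ± 0.09 (edgeR adjusted p = 0.000819) was kept in all 15 alternatives. GPX1, the cytosolic glutathione peroxidase and like GPX4 a selenoprotein, went the other way, from 143 and 172 CPM to 477 and 470.3 CPM in WT and from 263 and 258 CPM to 505 and 517 CPM in R350H. GPX1 rose by 1.59 ± 0.07 in WT (edgeR adjusted p = 5.59e-16) and by 0.97 ± 0.07 in R350H (edgeR adjusted p = 9.17e-12). GPX1 is also on the list of genes linked to p53, of which 10 of 13 rose in WT (median 1.30). In R350H 11 of them rose and 1 fell (median 0.89). The background over all genes was 24.1% higher and 23.6% lower in WT, and 26.1% and 21.8% in R350H. SEPHS2, which makes the selenium donor for selenoproteins, fell from 116 and 131 CPM to 84.3 and 79.1 CPM in WT and from 190.3 and 186 CPM to 66.5 and 64.2 CPM in R350H, with a difference of -0.93 ± 0.10 (edgeR adjusted p = 6.07e-08). Among the 17 tested selenoproteins other than GPX4 and TXNRD1, 8 were higher and 2 lower in untreated R350H than in untreated WT (median 0.19), where 17.3% of all genes tested passed as higher and 19.5% as lower (median -0.01). With doxorubicin 5 rose and 6 fell in WT (median -0.06), and 5 rose and 5 fell in R350H (median -0.04).

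Other genes of lipid peroxidation and iron moved in both directions. FTH1, the ferritin heavy chain that stores iron, fell from 2053 and 2537 CPM to 1321 and 1238 CPM in WT and from 2329.8 and 2579 CPM to 1366 and 1434 CPM in R350H, by 0.84 ± 0.08 and 0.81 ± 0.08 on the log2 scale (edgeR adjusted p = 1.58e-08 and 2.66e-08). GCH1, which starts the synthesis of tetrahydrobiopterin, rose in WT (0.41 ± 0.08) and fell in R350H (-0.48 ± 0.08), with a difference of -0.89 ± 0.11 (edgeR adjusted p = 1.29e-06). TFRC, the transferrin receptor that brings iron into the cell, stood at 168 and 157 CPM in untreated WT and at 346 and 355 CPM in untreated R350H, a difference of 1.11 ± 0.07 (edgeR adjusted p = 1.68e-12). Of the 23 tested genes of this list 10 rose and 3 fell in WT (median 0.18). In R350H 9 rose and 7 fell (median 0.07). The shares of all genes tested were 24.1% higher and 23.6% lower in WT, and 26.1% and 21.8% in R350H.

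NQO1 (ENSG00000181019.13, chromosome 16, 69706996 to 69726668, minus strand), a quinone reductase and a common readout of NRF2, was higher in R350H cells in both states. It was counted at 216 and 229 CPM untreated and 221 and 194 CPM with doxorubicin in WT cells, and at 390.2 and 418 CPM untreated and 343 and 349.5 CPM with doxorubicin in R350H cells. All 4 R350H libraries lay above all 4 WT libraries. NQO1 was higher in R350H by 0.86 ± 0.07 untreated (1.82-fold, edgeR adjusted p = 1.22e-10) and by 0.74 ± 0.07 with doxorubicin (1.67-fold, edgeR adjusted p = 1.54e-09), in all 16 alternatives each. The 121 tested genes within 3 Mb of NQO1 had median differences of -0.03 and -0.02. With doxorubicin the log2 change was -0.10 ± 0.07 in WT (edgeR adjusted p = 0.239) and -0.22 ± 0.07 in R350H (edgeR adjusted p = 0.0089). The R350H call was lost without untreated R350H replicate 2 (edgeR adjusted p = 0.143), without treated R350H replicate 1 (0.0641) and without the 2 libraries of the other strand setting (0.0793). The related reductase NQO2 stood at 79.5 and 83.9 CPM in untreated WT and at 88.4 and 83.4 CPM in untreated R350H (0.07 ± 0.07, edgeR adjusted p = 0.419), and fell with doxorubicin by 0.75 ± 0.07 in WT and by 0.89 ± 0.07 in R350H (edgeR adjusted p = 4.85e-10 and 1.24e-11).

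AKR1B10 (ENSG00000198074.10, chromosome 7, 134527567 to 134541412, plus strand), an aldo-keto reductase of aldehydes and ketones, was nearly silent in untreated cells and rose in both lines. Its raw counts were 3 and 2 in untreated WT, 172 and 218 in WT with doxorubicin, 9 and 7 in untreated R350H, and 107 and 134 in R350H with doxorubicin. On the CPM scale the treated libraries stood at 6.08 and 7.15 in WT and at 3.28 and 4.15 in R350H, and no group overlapped another. In WT it was 80.5-fold higher with doxorubicin (95% interval 34.2 to 249, for counting error only), and in R350H 14.9-fold higher (9.0 to 26.5). The edgeR log2 change was 6.26 ± 0.35 in WT (adjusted p = 2.08e-14) and 3.88 ± 0.30 in R350H (adjusted p = 1.85e-11). With doxorubicin the gene was lower in R350H than in WT by -0.83 ± 0.18 (edgeR adjusted p = 0.000439).

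The difference between the AKR1B10 responses, -2.38 ± 0.68 (edgeR adjusted p = 0.0169), rests on the few reads of the untreated libraries. It was lost without untreated WT replicate 1 (-2.54, edgeR adjusted p = 0.0554), untreated WT replicate 2 (-2.26, 0.0596) or untreated R350H replicate 1 (-2.19, 0.116), and without the 2 libraries of the other strand setting (-2.72, 0.0955). Untreated, R350H was 3.02-fold above WT on 16 against 5 reads (95% interval 1.06 to 10.5), which did not pass the edgeR test (adjusted p = 0.0675). AKR1B10 is the only one of the 9 genes in the authors' deposited table of TPM, which scales transcripts by length and library. The authors' deposited table lists it at 0.044 and 0.0449 TPM in untreated WT, 1.55 and 1.92 TPM in WT with doxorubicin, 0.0717 and 0.0496 TPM in untreated R350H, and 0.903 and 1.11 TPM in R350H with doxorubicin. By mean TPM the rise in WT, from 0.0445 to 1.74, was a smaller multiple than in the counts. That in R350H, from 0.0606 to 1.01, was not smaller. The untreated lines lay closer together in proportion than in the counts. AKR1B10 has a close paralog, AKR1B15, and reads that fit both could be lost or misplaced. AKR1B1, a widely expressed member of the same family, fell, with log2 changes of -0.27 ± 0.08 in WT and -0.59 ± 0.09 in R350H (edgeR adjusted p = 0.0094 and 4.35e-06).

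HMOX1 (ENSG00000100292.17, chromosome 22, 35380361 to 35394207, plus strand), haem oxygenase 1, a gene held down by BACH1 and among the most inducible of the NRF2 targets, did not pass the test with doxorubicin in either line. It was counted at 18.3 and 21.8 CPM untreated and 17.1 and 17.5 CPM with doxorubicin in WT cells, and at 11.2 and 15.5 CPM untreated and 13.4 and 13.4 CPM with doxorubicin in R350H cells. All 4 R350H libraries lay below all 4 WT libraries, the opposite of NQO1. The log2 change with doxorubicin was -0.21 ± 0.12 in WT (edgeR adjusted p = 0.163) and -0.001 ± 0.13 in R350H (edgeR adjusted p = 0.996). Without the 2 libraries of the other strand setting HMOX1 fell in WT (-0.34, edgeR adjusted p = 0.0219), and the value in R350H was 0.25 (edgeR adjusted p = 0.105), with a difference of 0.59 (edgeR adjusted p = 0.029). HMOX1 was lower in R350H by -0.58 ± 0.12 untreated (1.5-fold lower, edgeR adjusted p = 0.00065), and, with doxorubicin, by -0.37 ± 0.12 (edgeR adjusted p = 0.0197). The untreated call was kept in all 16 alternatives, with values from -0.36 without untreated R350H replicate 1 (edgeR adjusted p = 0.0376) to -0.96 without the 2 libraries of the other strand setting (edgeR adjusted p = 5.03e-05). The call with doxorubicin was lost when counts were scaled by their totals alone (-0.26, edgeR adjusted p = 0.0991).

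**Figure D2:**
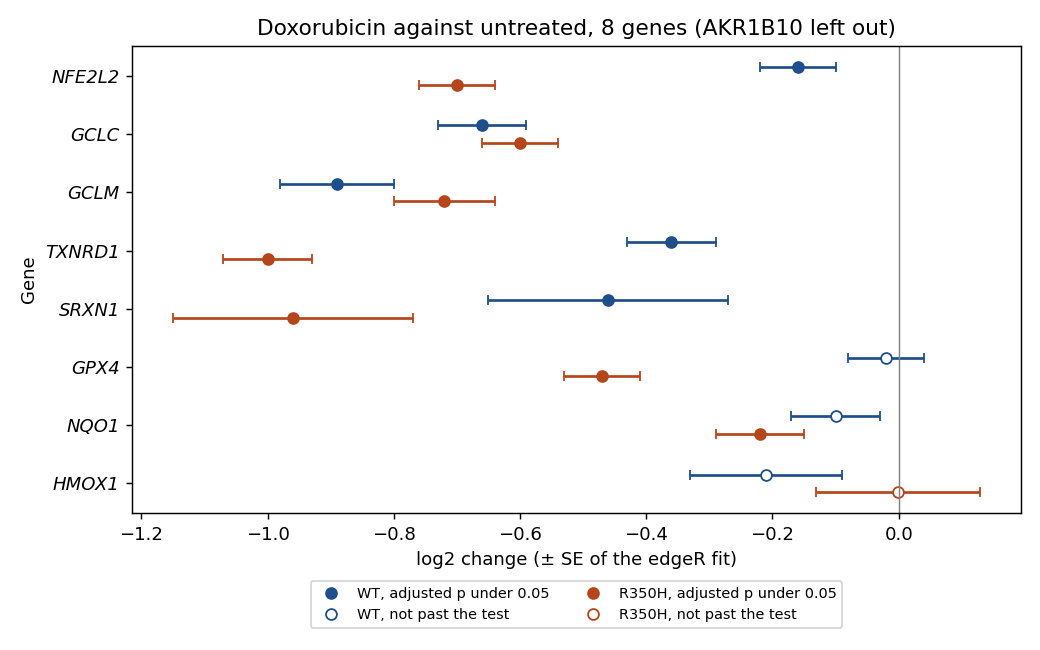
Change of the 9 genes other than AKR1B10 with doxorubicin on the log2 scale in WT and in R350H cells. Points are given ± SE of the edgeR fit, and filled points passed the test. AKR1B10, which rose by 6.26 in WT and by 3.88 in R350H, was left out of the plot. NFE2L2, TXNRD1 and GPX4 lie lower in R350H than in WT, and GCLC and GCLM lie close together in the 2 lines.

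The difference between the doxorubicin responses passed for NFE2L2, TXNRD1, GPX4 and AKR1B10, all 4 lower in R350H. The median difference over all 9 genes was -0.45, against 0.03 over all genes tested. By edgeR 0 of the 9 passed as higher, with 0 at an unadjusted p under 0.05 and 0 in the DESeq2 test. Over all genes tested 14.6% passed this test, 8.18% as lower and 6.46% as higher. Values of the 5 others were -0.12 for NQO1, 0.21 for HMOX1, 0.05 for GCLC, 0.17 for GCLM and -0.50 for SRXN1. The split over all genes depends on the scaling, with 44.1% of calls higher under TMM, 33.9% with the size factors of DESeq2, 28.0% in the DESeq2 test and 59.0% by total counts.

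Between the lines, 3 genes were higher and 1 lower in untreated R350H cells, and 5 did not pass (median 0.15, against -0.01 over all genes, of which 36.8% passed, 17.3% as higher and 19.5% as lower). With doxorubicin 3 were higher and 5 lower (median -0.36, against 0.02 over all genes, of which 40.1% passed, 19.1% as higher and 21.0% as lower). Of the genes called lower with doxorubicin, NFE2L2 (-0.43 ± 0.06, edgeR adjusted p = 2.78e-06), TXNRD1 (-0.50 ± 0.07, edgeR adjusted p = 1.13e-06) and GPX4 (-0.31 ± 0.06, edgeR adjusted p = 0.000232) had untreated differences of 0.11, 0.15 and 0.13. The GPX4 value with doxorubicin was -0.20 when counts were scaled by their totals (edgeR adjusted p = 0.011). Without untreated R350H replicate 2, 1 gene was higher untreated rather than 3. Over all genes, 47.7% of the calls with doxorubicin were higher, and 66.1% when counts were scaled by their totals, a scaling that moved the median of all genes from 0.02 to 0.13.

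The comparisons share libraries: each line's untreated pair enters both its own response and the untreated difference. Across the 8 libraries, levels of NFE2L2 and TXNRD1 had a Pearson r of 0.99 and those of GCLC and GCLM one of 0.98, on log2 CPM and as a description, since the points share 4 groups. NQO1 had an r of -0.10 with NFE2L2 and of -0.77 with HMOX1. Among 11277 genes searched, the 3 most like NFE2L2 were PPP1R15A (0.996), HOXB9 (0.995) and ZBED3 (0.995). GPX4 was closest to HNRNPL (0.996), SLC25A25 (0.994) and DDIT3 (0.982), AKR1B10 to PRODH, PLA2G4D and ENTR1 (0.997 each), and NQO1 to ZNF385B (0.993), ARF3 (0.991) and NDUFA4 (0.990). For GCLC they were CEP135 (0.998), B3GALT5 (0.996) and CCDC88A (0.996), and for GCLM B4GALT4 (0.991), DEPDC1 (0.991) and YIPF4 (0.990). Those for TXNRD1 were CALCOCO2 (0.993), EPS15 (0.991) and HAT1 (0.991), those for SRXN1 PAIP2 (0.989), CCNJ (0.983) and TMEM167B (0.980), and those for HMOX1 CWF19L1 (0.966), BCAS2 (0.956) and CSNK1D (0.948).

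Other NRF2 targets moved in both directions. Of 33 tested targets other than the members, 12 rose and 14 fell in WT (median -0.17), and 11 rose and 14 fell in R350H (median -0.06). Among all genes tested 24.1% passed as higher and 23.6% as lower in WT, and 26.1% and 21.8% in R350H. ABCC2, an export pump for glutathione conjugates and drugs, rose from 112 and 106 CPM to 309 and 316 CPM in WT and from 142 and 130.1 CPM to 418 and 395 CPM in R350H, by 1.52 ± 0.07 and 1.58 ± 0.07 (edgeR adjusted p = 2.42e-16 and 6.61e-17). OSGIN1 went from 22.0 and 25.2 CPM to 18.5 and 19.5 CPM in WT and from 39.7 and 39.0 CPM to 16.7 and 15.7 CPM in R350H, with a difference of -0.97 ± 0.13 (edgeR adjusted p = 2.37e-06). In untreated cells 9 of the 33 were higher in R350H and 4 lower (median 0.10), where 17.3% of all genes passed as higher and 19.5% as lower. With doxorubicin 8 were higher and 10 lower (median 0.12), next to 19.1% and 21.0% of all genes.

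The enzymes that supply NADPH, the electron donor of glutathione and thioredoxin reductase, also moved in both directions. Of the 17 tested 5 rose and 8 fell in WT (median -0.10), and 4 rose and 8 fell in R350H (median -0.18). Among all genes tested 24.1% passed as higher and 23.6% as lower in WT, and 26.1% and 21.8% in R350H. IDH1, the cytosolic isocitrate dehydrogenase, fell from 163 and 162 CPM to 85.1 and 75.5 CPM in WT and from 271 and 297 CPM to 92.8 and 96.9 CPM in R350H, with a difference of -0.57 ± 0.10 (edgeR adjusted p = 0.000147). MTHFD2, of mitochondrial folate metabolism, fell by 0.37 ± 0.07 in WT and by 1.54 ± 0.07 in R350H, with a difference of -1.17 ± 0.10 (edgeR adjusted p = 8.77e-10). ALDH1L1, a cytosolic folate enzyme that yields NADPH, stood at 20.4 and 22.5 CPM in untreated WT and at 210.1 and 201 CPM in untreated R350H, a difference of 3.27 ± 0.07 (edgeR adjusted p = 2.89e-22). Among 12 tested enzymes that can reduce doxorubicin, 2 rose and 4 fell in WT (median -0.23), and 3 rose and 4 fell in R350H (median -0.02). POR, cytochrome P450 reductase, fell by 0.84 ± 0.07 in WT and by 0.66 ± 0.07 in R350H (edgeR adjusted p = 7.18e-11 and 6e-09). CBR1, carbonyl reductase 1, GPX2 and GSTM3 were listed at 0 counts in all 8 libraries, and TXNIP at 0 or 1. These genes share no exon bases with another annotated gene on the same strand. Whether such counts reflect silent genes or the assignment of reads was not tested.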

How the data were processed

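Per the labels' protocols, the 8 libraries were made with a TruSeq kit for stranded mRNA. The authors deposited whole-number counts per gene, made with featureCounts 2.0.1 on GENCODE 34 from reads of mapping quality 10 or more, per the file headers. The build was hg38, with STAR 2.7.5a and Trim Galore 0.6.10, per the submitters' processing notes. A TPM table of 202 genes was deposited too; how its TPM values were made is not stated. Genes were named by Ensembl ID (42013 of 60669 matched).

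Counts were filtered with filterByExpr, leaving 17868 genes with 99.93% of counts, normalized with TMM, and fitted in edgeR 4.0.16 under R 4.3.3 (quasi-likelihood test with robust option, 4 group means, 4 residual degrees of freedom, two-sided, Benjamini-Hochberg adjusted p under 0.05 over all genes). The fit was also run on simulated data with far fewer changed genes than passed here, so that run cannot check the calls of these data. Alternatives used DESeq2 1.42.0 and, for the TPM table, limma 3.58.1 on log2(TPM + 1), which understates changes of low genes. Replicates differed by more than sampling noise (chi-square per gene 2 to 8.64). The value was 8.64 in untreated and 8.17 in treated WT, and 3.52 in untreated and 2 in treated R350H. For each gene the fit uses 1 estimate of the spread for the 4 groups. It may therefore understate the spread of the WT libraries. The members, lists and tests were chosen with earlier results of these data known. The text names the 9 members, KEAP1, BACH1 and SLC7A11, and draws on up to 3 genes per list and comparison with the largest change among those past the test at a mean of at least 5 CPM, and on the 3 most similar genes per member. DPF2 is given as the check of the labels. CBR1, GPX2, GSTM3 and TXNIP, list genes outside this rule, were named after their values were seen. Figures used matplotlib 3.10.9 in Python 3.11.15.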

Additional observations from a re-analysis of the deposited data

Results flagged for a closer look

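The response to doxorubicin differed between the 2 lines, by the edgeR test of the difference itself, for 4 of the 9 genes. Over all genes tested 14.6% passed this test, 8.18% as lower and 6.46% as higher. The response in R350H minus that in WT was -0.54 ± 0.09 for NFE2L2 (edgeR adjusted p = 7.4e-05), -0.64 ± 0.10 for TXNRD1 (edgeR adjusted p = 2.19e-05), -0.45 ± 0.09 for GPX4 (edgeR adjusted p = 0.000819) and -2.38 ± 0.68 for AKR1B10 (edgeR adjusted p = 0.0169). NFE2L2 and TXNRD1 fell further in R350H, although 11 of 16 alternatives did not call the WT fall of NFE2L2. GPX4 fell in R350H and did not pass the test in WT, and AKR1B10 rose less in R350H. The differences of the first 3 genes were called in all 15 alternatives, and that of AKR1B10 was not called in 4 of 16.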

How the results depend on the processing

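Settings tried were another scaling (3), no filter on low counts, the DESeq2 test, only the libraries compared, a replicate block, each library left out, the 2 libraries with the other strand setting left out and, for AKR1B10, the TPM table. With a library left out, the lone sample of its group is assumed to vary like the other groups. Of the recomputed changes of the members 648 kept their direction and side of the threshold, 38 lost the call, 14 gained one and 15 changed sign. Of the counts over the pathway lists 1407 stayed within 1.5 times and 173 did not. The number of members lower in WT with doxorubicin was 5, and 3 with DESeq2 size factors, with no filter, with only the libraries compared and in the DESeq2 test, and 3 to 6 without single libraries. Members higher in untreated R350H numbered 3, and 5 by upper quartile, 6 by total counts and 1 to 4 without single libraries. All genes higher in untreated R350H went from 3084 to 1930 without the 2 strand-setting libraries. All genes higher in R350H with doxorubicin went from 3421 to 5157 by total counts and 1987 to 3620 without single libraries. For the difference between responses, members higher went from 0 to 1 (HMOX1, 0.59) and all genes higher from 1155 to 720 without the strand-setting libraries, and all genes higher to 544 in the DESeq2 test and 417 to 1219 without single libraries. The causes were not tested. Values that changed sign were all short of the test in both settings. Without single libraries they ran, in WT with doxorubicin, from -0.19 to 0.03 for NQO1, -0.07 to 0.03 for GPX4 and -0.15 to 0.06 for KEAP1. In R350H with doxorubicin they ran from -0.22 to 0.26 for HMOX1 and -0.01 to 0.08 for BACH1. HMOX1 gave 0.03 by total counts, 0.01 with no filter and with the replicate block and 0.25 without the strand-setting libraries, and BACH1 gave -0.02 by upper quartile. Between untreated lines SRXN1 gave -0.02 without the strand-setting libraries, and SLC7A11 0.02 by total counts, 0.16 without the strand-setting libraries and -0.15 to 0.09 without single libraries. Between treated lines BACH1 ran from -0.005 to 0.17 and KEAP1 from -0.09 to 0.07 without single libraries, and KEAP1 gave -0.01 with DESeq2 size factors and in the DESeq2 test. For the difference HMOX1 ran from -0.01 to 0.47 and GCLC from -0.01 to 0.12. Replicate numbers did not pair the samples, with correlations of deviations from -0.076 to 0.041. The replicate block left 4 members lower in WT rather than 5, SRXN1 being lost (edgeR adjusted p = 0.0543), and moved no other count of member calls. Depth limits AKR1B10 in untreated cells (2 to 9 reads per library) and SRXN1 (66 to 146).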
